A study of Mus musculus with 24 samples.

Results

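Kupffer cell and myeloid genes were followed in liver RNA of fed and fasted mice with or without p110α in hepatocytes. The genes were taken from a list of 36 names of macrophage, monocyte and antigen-presentation genes, matched to the gene names printed with the array probes. Emr1 is an older name of Adgre1 and matched no probe, so the list gave 35 genes of the 21495 tested. They fell into 8 families by role. Of these, 7 are markers of Kupffer cell identity (Clec4f, Cd5l, Vsig4, Marco, Timd4, Cd163 and Folr2) and 3 encode complement C1q (C1qa, C1qb and C1qc). A further 5 mark macrophages in general (Adgre1, Csf1r, Cd68, Msr1 and Cd14), and 4 serve lysosomal digestion and killing (Lyz1, Lyz2, Ctss and Cybb). Monocyte traffic and adhesion (Cx3cr1, Ccr2, Itgam and Itgax), Fc receptors and their signalling (Fcgr1, Fcgr3, Fcer1g and Tyrobp), leukocytes in general (Ptprc, Laptm5, Aif1 and Ly86) and MHC class II (H2-Aa, H2-Ab1, H2-Eb1 and Cd74) gave 4 genes each.

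The groups were LWT (p110αhep+/+ control littermates) and LKO (p110αhep-/-, carrying an albumin-Cre transgene and p110α flox/flox alleles), each either fed ad libitum or fasted for 24 h from ZT16. Each group held 6 male mice aged 12 weeks, and all 24 mice were killed at ZT16, the Zeitgeber hour counted from lights on. The albumin promoter drives Cre in hepatocytes, so the deletion was directed at hepatocytes and not at macrophages. RNA came from whole liver on one-colour Agilent arrays. The comparisons below share groups of mice, so their values are given side by side and are not independent.

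Kupffer cells are the resident macrophages of the liver. They sit in the sinusoids, bind particles and complement-coated bacteria through receptors such as Clec4f, Vsig4 and Marco, and degrade what they take up in lysosomes rich in lysozyme and cathepsins. Their survival depends on Csf1r, the receptor for Csf1 and Il34. MHC class II molecules present peptides to CD4+ T cells and are made by macrophages, dendritic cells and B cells under the control of the coactivator Ciita. In bulk liver RNA, fewer cells of a type and less RNA per cell cannot be told apart. Nor do the values show which cells made a transcript, also for genes named here as macrophage markers. None of the values below was measured in isolated cells.

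The 4 MHC class II genes share a transcriptional control that reads short promoter elements, among them the X and Y boxes. Of the 35 genes, 27 matched at least 1 entry of a RefSeq promoter table (GRCm38.p6), H2-Aa and H2-Eb1 among the class II genes. The 120 bases before each start are shown 5′ to 3′ because every class II gene had a negative fasting estimate in both genotypes and these elements are the ones the family is known to share. The capitals mark CTGATTGG (Y box) and TAGCAAC (core of the X box). H2-Aa lies at chr17:34287824-34287943 on the minus strand and H2-Eb1 at chr17:34305747-34305866 on the plus strand.
H2-Aa: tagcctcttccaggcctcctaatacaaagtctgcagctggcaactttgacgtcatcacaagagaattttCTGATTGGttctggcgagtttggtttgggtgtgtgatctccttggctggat
H2-Eb1: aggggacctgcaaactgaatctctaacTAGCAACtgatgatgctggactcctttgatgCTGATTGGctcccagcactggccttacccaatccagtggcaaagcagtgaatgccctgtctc
The Y box began 51 bases before the start of H2-Aa and 62 bases before that of H2-Eb1. Read on both strands of all 32851 promoters of the table, each reaching from 250 bases before the start to 50 after it, CTGATTGG occurred in 4.1% and TAGCAAC in 3.66%. Among the 30 promoters of the 27 genes, CTGATTGG was found in 2, those of H2-Aa and H2-Eb1, and TAGCAAC in 2, those of H2-Eb1 and of Cd68, which is no class II gene. GAGGAA, the core bound by the myeloid factor PU.1, occurred in 28.3% of all promoters and in 15 of the 30 promoters of the 27 genes, those of Cd5l, Marco, Vsig4, C1qb and C1qc among them. These matches are descriptions of sequence and were not tested.

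Between 54.7% and 63% of the spots of an array were well above background. Of the 35 genes, 34 were well above background on all 24 arrays, and Ccr2 was on 23. Pik3ca, which encodes p110α, had a single probe, and no value here places it inside or outside the deleted exons. Its log2 intensity ran from 11.71 to 12.25 in fed LWT (median 11.88), 12.05 to 12.42 in fasted LWT (12.32), 12.30 to 13.02 in fed LKO (12.49) and 12.03 to 12.50 in fasted LKO (12.27). It was 1.49-fold higher in fed LKO than in fed LWT (limma, adjusted p = 0.00147) and did not pass the test between the fasted groups (log2 difference -0.02, limma, adjusted p = 0.93).

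Some arrays stood apart in these genes. Replicate 6 of fasted LKO was the highest of its group in 28 of the 35 genes, by a median of 1.04 on the log2 scale over the mean of the others. The mean log2 intensity of the 31 genes outside MHC class II was 10.87 on that array and 9.58 to 10.07 on the other 5 of the group. That array also had the highest median signal of the 24, at 88.5. Its mean over the 12 hepatocyte genes was 17.41, against 17.44 to 17.50 on the other 5 of its group. Replicate 4 of fed LWT also had 17.41. Replicate 6 of fasted LKO was likewise the highest of its group in 3 lists of lymphoid and dendritic markers. It had 7.37 against at most 7.27 for B cells, 7.73 against 7.64 for T and NK cells and 8.08 against 7.99 for dendritic cells. It was not the highest in the neutrophil, endothelial, stellate or erythroid lists. Replicate 3 of fasted LWT was the lowest of its group in 29 genes, by a median of 0.67, and replicate 2 was the highest in 25, by a median of 0.60. In fed LKO, replicate 2 was the highest in 24 genes, by a median of 0.43, and replicate 4 the lowest in 21, by a median of 0.37. In fasted LKO, replicate 1 was the lowest in 23, and replicates 1 and 5 lay lower than the others by medians of 0.55 and 0.59. What set these arrays apart was not tested, and the calls that changed when an array was left out are given beside the results or with the analysis settings.

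**Figure D1:**
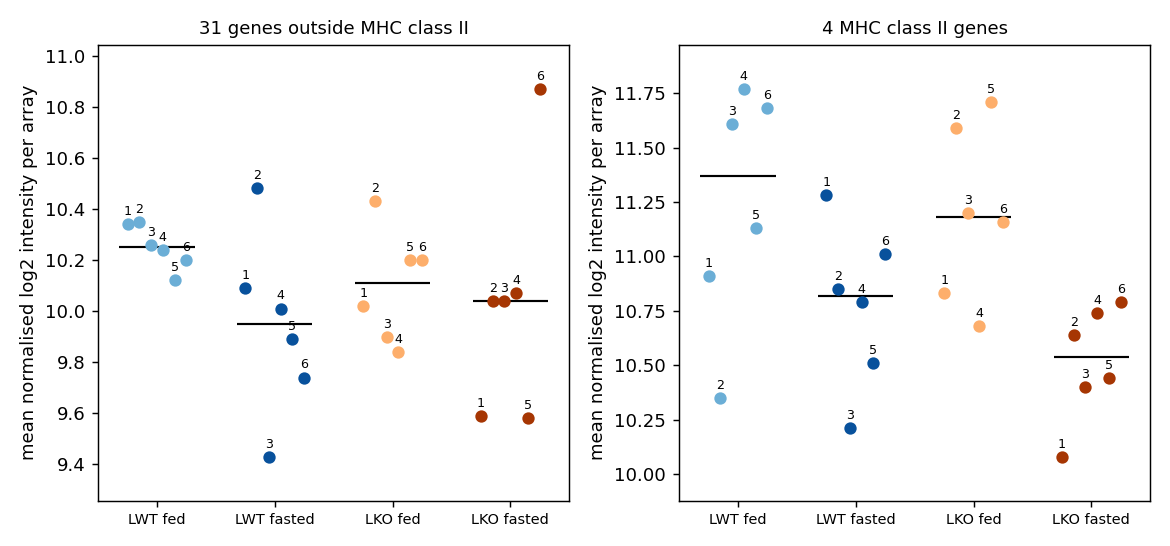
Mean normalised log2 intensity per array of the 31 genes outside MHC class II (left) and of the 4 MHC class II genes (right), by group, with replicate numbers beside the points and bars at the medians. Replicate 6 of fasted LKO lies at 10.87 on the left, above the other 5 of its group, and at 10.79 on the right, next to the 10.74 of the nearest array.

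The first comparison asked how fasting changed these genes in mice with intact p110α. In fasted LWT livers 12 of the 35 genes fell, 1 rose (Cd163) and 22 did not pass the test, at a Benjamini-Hochberg adjusted p of 0.05 or less over all probes. The genes that fell covered receptors for debris and immune complexes, lysozymes and C1q. They were Aif1, Folr2, Lyz1, Msr1, Lyz2, Tyrobp, Fcgr1, C1qa, C1qb, Fcer1g, H2-Aa and Cd68, with log2 changes from -0.89 to -0.51. Over all genes tested, 41.5% changed, 21.7% downwards and 19.9% upwards. Of the 35 genes 37.1% were called, 34.3% downwards. The share called was thus near that of all genes, and the calls were nearly all decreases. The median log2 change was -0.43 over the 35 genes and -0.01 over all genes tested, and 31 of the 35 estimates were negative.

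The largest of these decreases was in Aif1 (NM_019467), which encodes the macrophage calcium-binding protein IBA1. Its log2 intensity was 10.14 to 10.61 in fed LWT with a median of 10.29, and 8.88 to 10.13 in fasted LWT with a median of 9.56. No fasted array reached the lowest fed one. The change was -0.89 ± 0.235 (SE, n = 6 against 6), a 1.85-fold decrease (limma, adjusted p = 0.00416).

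Folr2 (NM_008035), a folate receptor of resident macrophages, was 10.30 to 10.85 in fed LWT with a median of 10.43, and 8.92 to 10.65 in fasted LWT with a median of 9.86. The groups overlapped through 1 fasted array, replicate 2. The log2 change was -0.86 ± 0.227 (limma, adjusted p = 0.00416).

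Msr1 (NM_031195), the class A scavenger receptor, ranged from 7.24 to 7.68 in fed LWT with a median of 7.53. In fasted LWT it ranged from 6.29 to 7.48 with a median of 6.76, again with replicate 2 inside the fed range. It fell by 0.83 on the log2 scale (SE 0.131, limma, adjusted p = 2.84e-05). A second Msr1 probe fell by 0.52 (SE 0.0992, limma, adjusted p = 0.000209).

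The lysozyme genes Lyz1 and Lyz2, whose product digests bacterial cell walls, fell together. Lyz1 was 10.67 to 11.16 in fed LWT with a median of 10.86 and 9.42 to 10.92 in fasted LWT with a median of 10.33, with a log2 change of -0.84 ± 0.226 (limma, adjusted p = 0.00477). Lyz2 was 13.22 to 13.82 with a median of 13.42 in fed LWT and 12.02 to 13.70 with a median of 12.88 in fasted LWT, with a log2 change of -0.82 ± 0.244 (limma, adjusted p = 0.00925). In both genes the fasted array of replicate 2 lay inside the fed range. A dimmer second probe of Lyz2 fell by 0.75 (limma, adjusted p = 0.0101).

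Cd163 (NM_053094), the scavenger receptor for haemoglobin bound to haptoglobin, moved the other way. Its log2 intensity was 8.99 to 10.11 in fed LWT with a median of 9.87 and 10.47 to 11.76 in fasted LWT with a median of 10.56. All 6 fasted arrays lay above all 6 fed ones. The log2 change was 0.85 ± 0.178, a 1.81-fold rise (limma, adjusted p = 0.000529), and a second, dimmer probe rose by 0.35 (limma, adjusted p = 0.00678). Among the 35 genes, Cd163, Aif1 and Cd68 had no overlap between fed and fasted LWT arrays, where 21.6% of all genes tested had none.

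The remaining Kupffer identity genes did not pass the test in LWT. Clec4f, a C-type lectin of Kupffer cells, had a log2 change of -0.32 (95% interval -0.62 to -0.02) and went from a median of 13.29 (range 13.18 to 13.47) to 13.07 (12.54 to 13.39). Cd5l, a secreted scavenger protein, was at 13.43 to 13.91 fed with a median of 13.64 and at 12.87 to 14.19 fasted with a median of 13.24. Vsig4, a complement receptor, was at 10.35 to 10.97 fed with a median of 10.71 and from 9.46 to just above the highest fed array when fasted, with a median of 10.38, a log2 change of -0.57 (interval -1.07 to -0.07, limma, adjusted p = 0.0616). For these 3 genes the fasted arrays spread over a wider range than the fed ones and overlapped them.

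Timd4, a phosphatidylserine receptor of long-lived resident macrophages, was at 7.76 to 8.25 fed with a median of 7.91 and at 7.33 to 8.67 fasted with a median of 7.64. Marco, a scavenger receptor, was the most variable of the family, at 9.90 to 12.89 fed with a median of 10.33 and at 9.84 to 11.82 fasted with a median of 10.49. Of the 7 identity genes, therefore, 1 rose, 1 fell and 5 did not pass the test.

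In the other families, C1qa and C1qb each fell by 0.60 (limma, adjusted p = 0.0429 and 0.0476), calls that held in 26 and 19 of 40 alternative analyses, whereas C1qc had a change of -0.33 (interval -0.70 to 0.05). Among the Fc receptor genes, Tyrobp, an adaptor of activating receptors, fell by 0.81 (limma, adjusted p = 0.0128). Fcgr1, the high-affinity receptor for IgG, fell by 0.63 (limma, adjusted p = 0.0143), and Fcer1g, the shared signalling chain, by 0.59 (limma, adjusted p = 0.0206). Cd68, a lysosomal membrane protein of macrophages, fell by 0.51 on its brightest probe (limma, adjusted p = 0.0168) and by 0.65 and 0.53 on its other 2 probes. Adgre1, which encodes F4/80, and Csf1r had changes of -0.54 (interval -1.17 to 0.09) and -0.44 (interval -0.90 to 0.02) on their brightest probes. A second Csf1r probe passed the test, at -0.17 in LWT (limma, adjusted p = 0.0408) and -0.30 in LKO (limma, adjusted p = 0.00259). Fcgr3, a low-affinity IgG receptor, had -0.15 on its brightest probe and fell by 0.52 on the other (limma, adjusted p = 0.0233).

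Ctss, a lysosomal cathepsin, and Cybb, a subunit of the phagocyte NADPH oxidase, had changes of -0.40 and -0.43 (limma, adjusted p = 0.108 and 0.051). Itgax, which encodes CD11c, had -0.34 (limma, adjusted p = 0.0538), and Ly86, a partner of the Toll-like receptor relative Cd180, had -0.40. Laptm5, a lysosomal membrane protein of leukocytes, had -0.09. In LKO these 5 genes had estimates between -0.25 and 0.13 and none passed the test.

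Cd14, the co-receptor for bacterial lipopolysaccharide, differed from most of these genes in sign, with a log2 change of 0.42 in LWT (interval -0.05 to 0.88). The monocyte genes Cx3cr1 and Ccr2, receptors for fractalkine and Ccl2, were dim throughout, at 5.81 to 6.90 on every array, with changes of 0.01 and -0.07. The brightest Ptprc probe, which the annotation ties to an Ensembl transcript, had a change of 0.10, while another Ptprc probe with a mean of 8.93 fell by 0.52 (limma, adjusted p = 0.0263).

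The number of genes called in LWT changed with the arrays used. Without replicate 3 of fasted LWT, or without replicate 6, 5 genes kept their call, the same in each case: Cd163, Folr2, Msr1, Lyz1 and Aif1. Without replicate 2 of fasted LWT, 16 genes were called, with a median log2 change of -0.47 over the 35, and Cd163 rose by 0.77 (limma, adjusted p = 0.000433). Fitted on the LWT groups alone, 20 genes fell and 1 rose, with all 13 calls kept and 42.2% of all genes called.

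**Figure D2:**
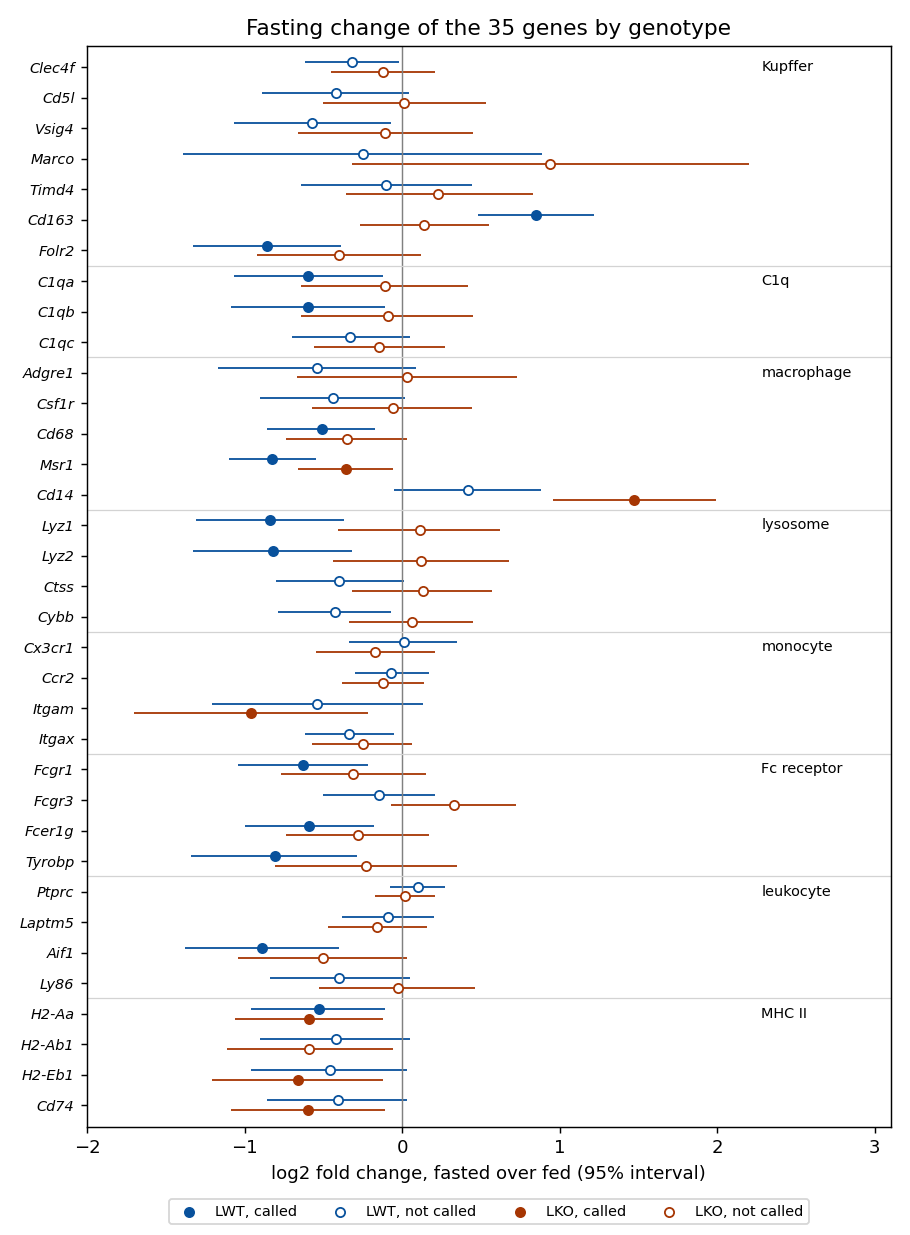
Fasting log2 fold change of the 35 genes in LWT (blue) and LKO (brown) with 95% intervals, grouped by family; filled points passed an adjusted p of 0.05 and open points did not. In LWT 12 genes fell and 1 rose, and in LKO 5 fell and Cd14 rose by 1.47.

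The same comparison in mice lacking hepatocyte p110α gave fewer calls. In fasted LKO livers Cd14 rose, and H2-Eb1, Cd74, H2-Aa and Msr1 fell. The brighter of the Itgam probes also fell, but the other probe did not pass the test, and whether the brighter one reports Itgam is not known. The other 29 of the 35 genes did not pass the test. That is 17.1% of the genes, below the 41.5% of all genes tested that changed in LKO, 19.7% upwards and 21.8% downwards. The median log2 change of the 35 genes was -0.12, against -0.02 over all genes tested.

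Cd14 (NM_009841) had the smallest adjusted p of the 35 genes in LKO. Its log2 intensity was 8.02 to 8.64 in fed LKO with a median of 8.27 and 9.21 to 10.84 in fasted LKO with a median of 9.78. The lowest fasted array stood above the highest fed one, which 22.1% of all genes tested also showed in either direction and no other of the 35 did. The log2 change was 1.47 ± 0.249, a 2.78-fold rise (limma, adjusted p = 5.59e-05). A second Cd14 probe rose by 1.44 (limma, adjusted p = 9.07e-05). The rise was 1.32, 1.12 and 1.96 within the 3 slides, and 1.19 without replicate 6 of fasted LKO (limma, adjusted p = 6.37e-05).

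Msr1 fell in LKO as well, from 7.16 to 7.49 fed (median 7.31) to 6.67 to 7.27 fasted (median 6.91), by 0.36 (SE 0.145, limma, adjusted p = 0.0499). The fasted arrays reached into the fed range. The call stood at the edge of the threshold and held in 16 of 40 alternative analyses.

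None of the 7 Kupffer identity genes passed the test for fasting in LKO, and their log2 changes ran from -0.40 for Folr2 to 0.94 for Marco. Marco was at 10.59 to 11.72 in fed LKO with a median of 11.01 and at 10.08 to 14.75 in fasted LKO with a median of 11.62, the 14.75 being replicate 6 and the next array 12.97. Timd4 was at 7.42 to 7.82 fed with a median of 7.55 and at 7.15 to 9.40 fasted with a median of 7.57, replicate 6 again being the highest.

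Clec4f had a median of 13.09 fed (12.83 to 13.62) and 13.08 fasted (12.55 to 13.33). Cd5l had a median of 13.48 fed (13.21 to 13.88) and 13.41 fasted (12.76 to 14.71), and Vsig4 of 10.19 fed (9.53 to 10.69) and 9.88 fasted (9.42 to 11.05). The fed and fasted ranges of these 3 genes overlapped widely.

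Cd163 had a median of 10.13 fed (9.81 to 10.21) and 10.04 fasted (9.47 to 10.98). Folr2 had a median of 10.08 fed (9.66 to 10.68) and 9.55 fasted (9.04 to 10.27). Neither passed the test in LKO, and the fasting rise of Cd163 seen in LWT had an estimate of 0.14 here (interval -0.27 to 0.55).

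Without replicate 6 of fasted LKO, 8 genes were called in LKO, with a median log2 change of -0.33 over the 35. Cd14 rose and Aif1, Fcer1g, Fcgr1, Cd68, H2-Eb1, Cd74 and H2-Aa fell, while Itgam and Msr1 lost their calls, Msr1 at an unaltered estimate of -0.36 (limma, adjusted p = 0.0736). In that analysis Aif1 fell by 0.80 (limma, adjusted p = 0.00244) and Cd68 by 0.50 (limma, adjusted p = 0.0209). Lyz2, at 0.12 with all arrays (limma, adjusted p = 0.767), was at -0.13 without that array (limma, adjusted p = 0.707), and was not called either way. Among all genes tested, 37.4% were then called.

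**Figure D3:**
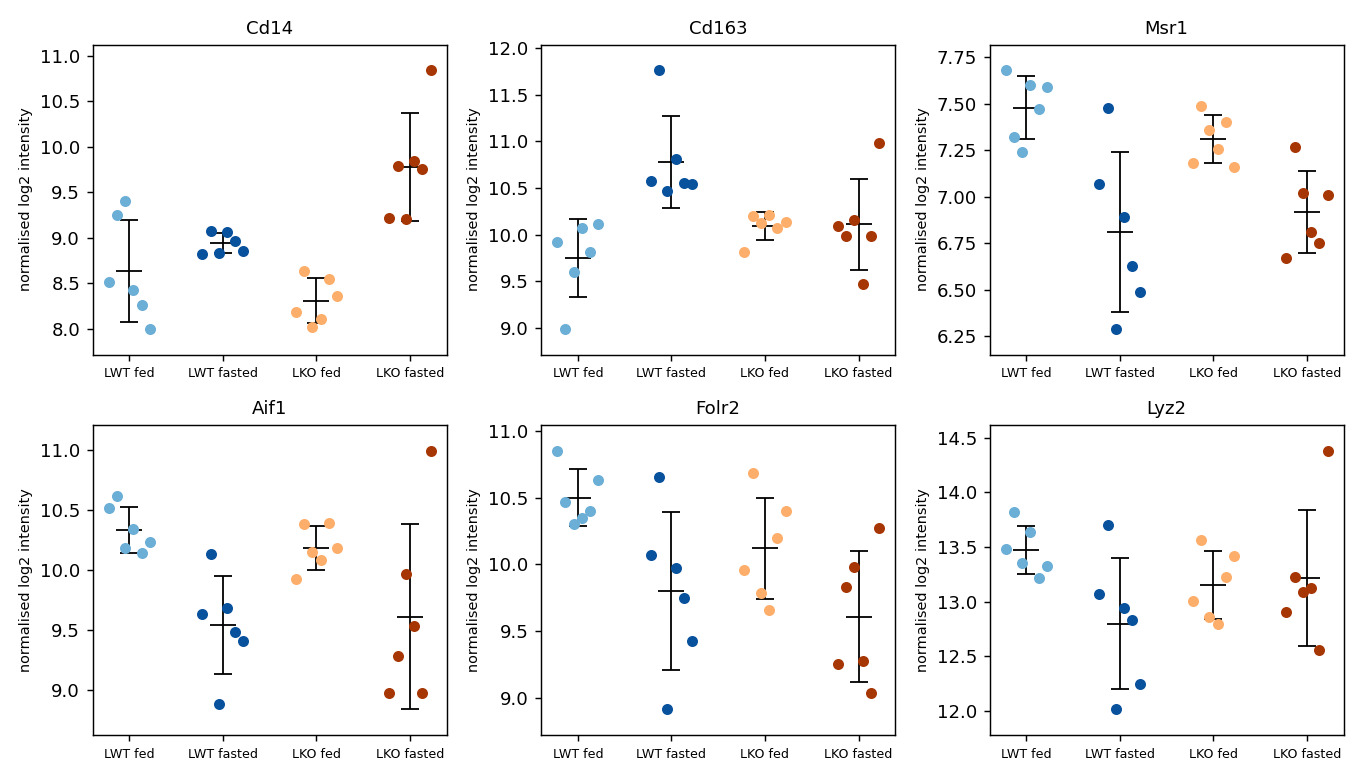
Normalised log2 intensity of Cd14, Cd163, Msr1, Aif1, Folr2 and Lyz2 on every array, by group, with the mean and SD (n = 6) in black. Cd14 in fasted LKO lies between 9.21 and 10.84, above every fed LKO and fasted LWT array, and Cd163 in fasted LWT lies between 10.47 and 11.76.

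All 4 MHC class II genes had negative fasting estimates in LWT (-0.53 to -0.41) and in LKO (-0.66 to -0.59). H2-Aa passed the test in LWT, and H2-Aa, H2-Eb1 and Cd74 passed it in LKO. These calls stood near the threshold. Of 40 alternative analyses, the call of H2-Aa held in 24 in LWT and in 25 in LKO, that of H2-Eb1 in 21 and that of Cd74 in 19, with estimates that stayed negative in all 40.

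H2-Aa (NM_010378, chromosome 17, 34421285 to 34421344 of mm9), the class II alpha chain, was at 8.68 to 9.88 in fed LWT with a median of 9.63 and at 8.30 to 9.52 in fasted LWT with a median of 9.01. In LKO it was at 8.65 to 9.80 fed with a median of 9.27 and at 8.18 to 8.90 fasted with a median of 8.67. The fed and fasted ranges overlapped in both genotypes. The log2 changes were -0.53 ± 0.205 (limma, adjusted p = 0.0416) and -0.59 ± 0.226 (limma, adjusted p = 0.0417).

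H2-Eb1 (NM_010382), a class II beta chain, was at 10.72 to 12.32 in fed LWT with a median of 11.77 and at 10.76 to 11.66 in fasted LWT with a median of 11.36. In LKO it was at 11.23 to 12.36 fed with a median of 11.77 and at 10.69 to 11.32 fasted with a median of 11.04, with 4 of the 6 fasted arrays below every fed one. It fell by 0.66 in LKO (SE 0.262, limma, adjusted p = 0.047).

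Cd74, the invariant chain that escorts class II molecules, was at 11.05 to 12.49 in fed LWT with a median of 11.90 and at 10.77 to 12.00 in fasted LWT with a median of 11.32. In LKO it was at 11.26 to 12.28 fed with a median of 11.74 and at 10.66 to 11.42 fasted with a median of 11.16. It fell by 0.60 in LKO (SE 0.237, limma, adjusted p = 0.0476) and had a change of -0.41 in LWT (interval -0.86 to 0.03).

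H2-Ab1, the other class II beta chain, did not pass the test on its brightest probe. It was at 10.94 to 12.66 in fed LWT with a median of 12.03, at 11.02 to 11.93 in fasted LWT with a median of 11.55, at 11.54 to 12.51 in fed LKO with a median of 11.95 and at 10.80 to 11.68 in fasted LKO with a median of 11.34. Its changes were -0.42 (interval -0.90 to 0.05) in LWT and -0.59 (interval -1.11 to -0.06, limma, adjusted p = 0.0705) in LKO. Of its other 3 probes, 1 passed in LWT at -0.59 (limma, adjusted p = 0.0468) and another in LKO at -0.64 (limma, adjusted p = 0.0405).

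The class II genes varied together from mouse to mouse. On 20 of 24 arrays all 4 lay on the same side of their group means. The same held on 19 arrays for the 3 C1q genes, on 17 for the 4 lysosomal genes and on 14 for the 4 Fc receptor genes, so this was not a trait of class II alone. On 14 of the 24 arrays the mean deviation of class II and that of the 23 genes of the Kupffer, C1q, macrophage, lysosomal and Fc receptor families had the same sign. In fed LWT the signs matched on 1 array of 6. Replicate 2 of fed LWT deviated by -0.89 in class II and by 0.15 in the 23 genes, and replicate 6 of fasted LKO by 0.27 and 1.04. Within slides, the median class II change was -0.68, -0.84 and -0.50 in LKO, and -0.43, 0.15 and -1.06 in LWT. The slide with the positive value holds replicate 2 of fed LWT, and without that array H2-Aa, H2-Ab1 and H2-Eb1 fell in LWT by 0.65, 0.58 and 0.61.

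**Figure D4:**
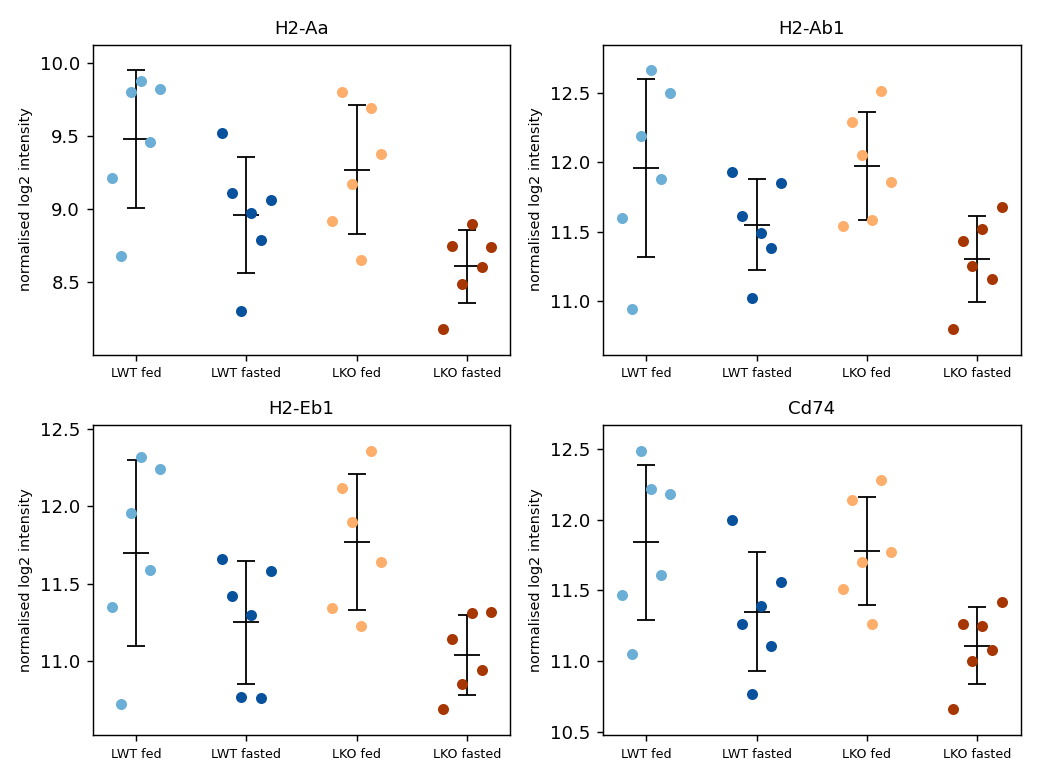
Normalised log2 intensity of the MHC class II genes H2-Aa, H2-Ab1, H2-Eb1 and Cd74 on every array, by group, with the mean and SD (n = 6) in black. The fasted LKO arrays lie at 8.18 to 8.90 for H2-Aa and 10.69 to 11.32 for H2-Eb1, and replicate 2 is the lowest fed LWT array in all 4 genes.

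The genes that serve class II expression and peptide loading were read as a separate list, of which 10 of 12 were tested. In LWT 3 fell and 1 rose, and in LKO 4 fell and 1 rose, a share of the list near the 41.5% of all genes called in each genotype. Ciita, the class II coactivator, fell by 0.54 in LWT (limma, adjusted p = 0.000643) and by 0.77 in LKO (limma, adjusted p = 4.33e-05). H2-DMa, a peptide-loading chaperone subunit, fell by 0.58 in LWT and by 0.45 in LKO, and its partner H2-DMb1 fell by 0.67 in LKO. Rfxank, a subunit of the factor that binds the X box, fell by 0.54 and 0.43. Its partner subunits did not pass the test in either genotype. Rfx5 had -0.08 in LWT and 0.10 in LKO, and Rfxap had 0.18 and 0.12. The gene of the list that rose was the cathepsin gene Ctsl, by 0.35 in LWT and 0.45 in LKO. The median change of the list was -0.13 in LWT and -0.01 in LKO. Markers of B cells and dendritic cells, which also make class II, showed few calls. Of 7 B cell genes tested, Ms4a1 fell and Jchain rose in LWT and none was called in LKO, and of 8 dendritic genes Cd209a fell and Clec9a rose in LWT and none was called in LKO. In the dendritic list Siglech had group means of 15.82 to 16.16, against at most 7.53 for the other genes. Whether that probe reports Siglech was not tested. The mean log2 level of the B cell list ran from 6.98 to 7.22 in fed LWT, 6.86 to 7.37 in fasted LWT, 6.96 to 7.35 in fed LKO and 6.77 to 7.37 in fasted LKO, ranges that overlap throughout. The part of these cells in the class II values was not tested.

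The genotypes were then compared at each nutritional state, which asks whether loss of p110α in hepatocytes went with a change in these genes. In fed mice 1 of the 35 genes was called, Itgam, against 16.4% of all genes tested. The median log2 difference, LKO minus LWT, was -0.24 over the 35 genes and -0.01 over all genes tested, and 27 of the 35 estimates were negative. Vsig4 had the largest negative estimate, -0.64 (interval -1.15 to -0.13, limma, adjusted p = 0.0836). Fcgr3 had -0.44 on its brightest probe (limma, adjusted p = 0.0915) and -0.72 on its other probe (limma, adjusted p = 0.00991). Cd68 had -0.32 on its brightest probe (limma, adjusted p = 0.216). Its other probes had -0.50 and -0.55 (limma, adjusted p = 0.12 and 0.0413). Fitted on the fed groups alone, Vsig4, Timd4, C1qa, C1qb, Lyz1, Cybb and Tyrobp were lower in LKO, with log2 differences from -0.64 to -0.35, and 14.1% of all genes were called. Within the slides the median difference of the 35 genes was 0.06, -0.29 and -0.47.

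Itgam encodes CD11b, an integrin of monocytes, macrophages and neutrophils, and its value rests on the probe chosen. The brighter of its 2 probes covers chr7:135261755-135261814 and the dimmer one chr7:135212140-135212199 of mm9. The first 30 of the 60 bases of each are shown because the probes disagree, with a run of CA repeats in capitals.
Itgam brighter: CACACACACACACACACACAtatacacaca
Itgam dimmer: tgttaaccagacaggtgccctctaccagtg
Of the 56605 probes, 5 open with that run of 20 bases. The brighter probe read 11.56 to 12.23 in fed LWT with a median of 12.00 and 12.95 to 13.53 in fed LKO with a median of 13.16. Its fed arrays did not overlap, as was true of 8.63% of all genes tested, and the difference was 1.24 ± 0.331 (limma, adjusted p = 0.0136). In fasted LKO it read 13.69 and 13.98 on replicates 1 and 2 and 10.84 to 11.66 on the other 4, and in fasted LWT it read 11.17 to 11.85 with a median of 11.27. The dimmer probe read 5.84 to 6.22 on every array, with differences of -0.03 between the fed groups (limma, adjusted p = 0.798), -0.06 for fasting in LWT and -0.03 for fasting in LKO. The fasting change in LKO on the brighter probe, -0.96 (limma, adjusted p = 0.036), was thus called on that probe alone, and lost its call without replicate 6 of fasted LKO (-0.67, limma, adjusted p = 0.165). Without replicates 1 and 2 of fasted LKO it was -1.73 on the brighter probe (limma, adjusted p = 1.06e-07).

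**Figure D5:**
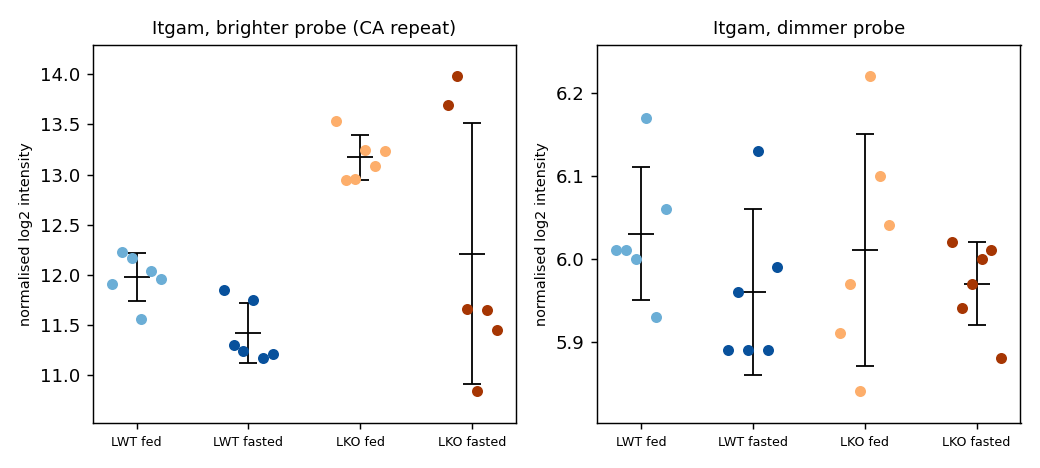
Normalised log2 intensity of both Itgam probes on every array, by group, with the mean and SD (n = 6) in black; the 2 panels have different axes. The brighter probe separates fed LKO (12.95 to 13.53) from fed LWT (11.56 to 12.23), and the dimmer one stays between 5.84 and 6.22.

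In fasted mice Cd14 was the 1 gene of 35 that was called, where 20.6% of all genes tested were. Cd14 stood at 8.82 to 9.07 in fasted LWT with a median of 8.91, below each of the 6 fasted LKO arrays. Non-overlap of the fasted groups was found in 8.67% of all genes. The log2 difference was 0.82 ± 0.245, 1.76-fold (limma, adjusted p = 0.0214), and 1.04 on the second probe (limma, adjusted p = 0.00506). It was 0.86, 0.66 and 1.01 within the slides. The call was lost without replicate 6 of fasted LKO, where the difference was 0.53 (limma, adjusted p = 0.0668), and without replicate 3 or replicate 6 of fasted LWT, where the differences were 0.76 and 0.78 (limma, adjusted p = 0.0519 and 0.0609). The median difference of the 35 genes was 0.03, against 0.00 over all genes tested. Marco had the largest estimate, 1.47 (interval 0.24 to 2.71, limma, adjusted p = 0.0879), which was 0.76 without replicate 6 of fasted LKO. It passed the test without replicate 2 of fed LWT, at 1.54, and without replicates 1 and 2 of fasted LKO, at 2.11 (limma, adjusted p = 0.0284 in each). Cd163 had -0.44 (interval -0.84 to -0.04, limma, adjusted p = 0.116), and -0.59 without replicate 6 of fasted LKO (limma, adjusted p = 0.0347).

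Whether fasting acted differently in the 2 genotypes was tested with an interaction term, positive where the change was higher in LKO. None of the 35 genes passed this limma test, against 7.97% of all genes tested. At an unadjusted p under 0.05 there were 5 of the 35, and 23.8% of all genes. These were Cd14 at 1.06 ± 0.336 (limma, adjusted p = 0.0577), Lyz1 at 0.94 (limma, adjusted p = 0.0907), Lyz2 at 0.94 (limma, adjusted p = 0.119), Msr1 at 0.46 (limma, adjusted p = 0.157) and Cd163 at -0.71 (limma, adjusted p = 0.105). So a gene called in 1 genotype and not in the other, such as Cd163 or Lyz2, was not shown to differ between them. For Cd14 the adjusted p ranged from 0.0303 to 0.114 over 39 alternative analyses and was at or under the threshold in 12, and the second Cd14 probe gave 1.11 (limma, adjusted p = 0.0502).

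The median of this difference was 0.36 over the 35 genes and 0.00 over all genes tested. It was -0.14, 0.32 and 0.64 within the 3 slides, and 0.11 without replicate 6 of fasted LKO. The class II genes had the reverse sign, with estimates of -0.20 to -0.06 and intervals reaching from -0.93 to 0.58. The differences of the 7 Kupffer identity genes had intervals as wide as -0.51 to 2.89, for Marco.

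The signals that recruit and maintain macrophages were read in 2 further lists. Of 7 growth factors and ligands tested, 2 fell and 1 rose in LWT and 3 fell in LKO, near the 41.5% of all genes called in each genotype. Csf1, the main macrophage growth factor, fell by 0.96 in LWT (limma, adjusted p = 4.32e-07) and by 0.67 in LKO (limma, adjusted p = 0.000131). Ccl2, which draws monocytes through Ccr2, fell by 1.21 in LWT (limma, adjusted p = 1.99e-06) and by 0.73 in LKO (limma, adjusted p = 0.00172). Il34, the other ligand of Csf1r, rose by 0.60 in LWT (limma, adjusted p = 3.07e-06) and changed by 0.08 in LKO, and here the genotypes did differ, by -0.53 (limma, adjusted p = 0.01).

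Of 16 cytokine and chemokine genes tested, 9 fell and 3 rose in LWT, and 7 fell and 3 rose in LKO, shares above the 41.5% of all genes called in each genotype. Cxcl9, a chemokine induced by interferon-γ, fell by 1.18 and 1.42, and Cxcl1 by 0.93 and 1.76. The interleukin-1 receptor antagonist Il1rn was well above background on 2 of 6 fed LWT arrays, 5 of 6 fed LKO arrays and all fasted ones. It rose in both genotypes, with fitted changes of 1.33 in LWT and 3.18 in LKO. Because most fed LWT arrays did not measure it above background, the LWT change and the fitted difference between genotypes of 1.85 (limma, adjusted p = 0.00127) are not exact sizes. Il18 fell by 0.53 and 1.07, a difference of -0.54 (limma, adjusted p = 0.01).

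A wider list of macrophage genes, of which 33 of 35 were tested, had 11 decreases and 3 increases in LWT and 5 decreases and 4 increases in LKO, with medians of -0.27 and -0.12. Its share of called genes was near the 41.5% of all genes in LWT and below the 41.5% in LKO. Pilra fell by 1.06 in LWT. Csf2rb, the shared receptor chain for GM-CSF and interleukin-3, had -0.26 in LWT and rose by 1.08 in LKO, a difference of 1.34 (limma, adjusted p = 8.55e-05). Between the fed genotypes 2 of the 33 genes were called, a share below the 16.4% of all genes tested. Both were lower in LKO, Pilra by 1.09 (limma, adjusted p = 0.0046) and Cd53 by 0.56 (limma, adjusted p = 0.0208). Between the fasted genotypes 2 were higher and 2 lower in LKO, a share below the 20.6% of all genes tested.

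Markers of other cells that liver RNA could hold were read beside these values. In LWT the fasting medians were -0.09 for 16 sinusoidal endothelial genes, -0.09 for 14 stellate cell genes, -0.20 for 8 neutrophil genes, -0.14 for 14 T and NK cell genes, -0.48 for 8 erythroid genes and 0.00 for 12 hepatocyte genes. In LKO they were 0.04, -0.16, -0.09, 0.00, 0.26 and -0.04. In the neutrophil list Csf3r had group means of 15.11 to 15.42, against at most 9.71 for the other genes. In the T and NK cell list Cd4 had 13.56 to 13.99, against at most 9.72. Whether the probes of Csf3r and Cd4 report these genes was not tested. Single stellate cell genes moved with fasting by as much as the macrophage genes, with 4 decreases and 2 increases in LWT and 5 decreases and 2 increases in LKO, against 41.5% of all genes called in each genotype. Acta2, the smooth muscle actin of activated stellate cells, fell by 1.05 in LWT and by 0.91 in LKO. Lrat, which stores retinol as esters, fell by 0.90 and 0.96, and the collagen gene Col3a1 by 0.89 and 1.23. The nerve growth factor receptor gene Ngfr fell by 0.85 in LWT and by 1.03 in LKO. Of the endothelial genes 3 fell and 1 rose in LWT, and 1 fell and 3 rose in LKO. In each genotype 2 of the 8 neutrophil genes fell. For both of these lists the share called was below that of all genes. The mean log2 level of the stellate list had a median of 10.24 in fed LWT and 9.95 in fasted LWT, where the groups did not overlap. The endothelial list was at 10.75 to 10.93 and 10.28 to 11.14, with overlap. The part of these cells in the values of the macrophage genes was not tested.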

How the data were processed

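Liver RNA of 24 mice was hybridised to one-colour Agilent arrays. The deposited scanner files hold spot intensity from Agilent Feature Extraction 10.10.1.1, with probe positions in mm9, and the authors' series table holds log2 values, used as an alternative. Log2 median intensity was averaged over spots of a probe after outlier flags were left out. Probes well above background on at least 5 of 6 arrays of a group were kept (32197 of 56605) and quantile normalised. One probe per gene, the brightest, was used. limma 3.58.1 (R 4.3.3) was fitted over all kept probes with group and slide terms and array weights, and p-values were adjusted by Benjamini-Hochberg. Each of the 3 slides held 2 arrays of each group. Group values are unweighted, fold changes weighted. The self-test used simulated data. Genes were named by rule: all 35 by family, all Kupffer identity and MHC class II genes with their ranges, and up to 4 called increases and decreases per contrast. From each other list and contrast at most 3 called genes were eligible, and not all of these are named. Rfx5 and Rfxap, which were not called for fasting, are given beside Rfxank. The members and lists were chosen with earlier results of these data known. Sequences came from the array files and RefSeq. The number of arrays limits precision.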

Additional observations from a re-analysis of the deposited data

Results flagged for a closer look

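In 8 of 140 groups of 6 arrays (35 genes in 4 groups) the highest or lowest array lay far from the nearest of the others relative to the range of its group. Chance alone gives about 1 such group in 20. Replicate 6 of fasted LKO accounted for 4 of them: Timd4 at 9.40 against 7.89 on the next array, Adgre1 at 11.80 against 10.11, Lyz1 at 11.83 against 10.55 and Lyz2 at 14.38 against 13.23. Marco reached 12.89 on replicate 2 of fed LWT, against 10.68 on the next array. Cd163 reached 11.76 on replicate 2 of fasted LWT, against 10.81, and was as low as 9.81 on replicate 1 of fed LKO, against 10.07. Fcgr1 reached 8.08 on replicate 2 of fed LKO, against 7.60.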

How the results depend on the processing

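Over 40 alternatives (39 for the interaction) no called gene among the 35 changed direction. The alternative that also required a fold over 1.5 gave no median of its own. Over the others the median fasting change of the 35 genes stayed between -0.54 and -0.32 in LWT and between -0.33 and -0.01 in LKO. The median difference between the fasted genotypes, 0.03, changed sign: it was -0.03 with equal array weights, -0.09 and -0.03 without replicate 3 or 6 of fasted LWT and -0.12 without replicate 6 of fasted LKO. Genes that were not called could change sign too, as Lyz2 and Cd163 did for fasting in LKO without that last array (0.12 to -0.13 and 0.14 to -0.01). The number of genes called was less stable.

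Fasting in LWT gave 13 calls, 21 when the groups compared were fitted alone, and 5 to 18 when 1 array was left out, the 5 without replicate 3 or 6 of fasted LWT. Fasting in LKO gave 6 calls. It gave 2 with the processed signal scaled to its 75th percentile, 3 with the row of the slide as a term, 1 with an unmoderated test, 2 with the mean over the probes of a gene, 2 without replicates 1 and 2 of fasted LKO and 2 to 8 when 1 array was left out. It was 2 or 3 without replicate 5 of fed LWT, replicate 4 or 6 of fasted LWT, replicate 1, 2, 3 or 5 of fed LKO, or replicate 1, 2, 3 or 4 of fasted LKO, with Cd14 called each time. The fed genotypes gave 1 call, 2 with normexp, median scaling, the stricter filter or the mean over probes, 8 for the groups compared alone and 1 to 3 without 1 array, the 3 without replicate 6 of fasted LKO. The fasted genotypes gave 1 call, 2 with equal array weights, no slide term, slide as a random block or without the LKO pair, and 0 to 2 without 1 array, the 0 without replicate 3 or 6 of fasted LWT and the 2 without replicate 2 of fed LWT or replicate 1, 4, 5 or 6 of fasted LKO. The interaction gave 0 calls, 1 with normexp, the authors' log2 values, median scaling, the stricter filter, no slide term or slide as a random block, 2 with equal weights or without the LKO pair and 0 to 1 without 1 array, the 1 without replicate 6 of fed LWT or replicate 1, 2 or 3 of fasted LKO. The cause of these shifts was not tested.

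Same-numbered arrays of different groups correlated at r of -0.172 to 0.295 in their deviations from group means, so the numbers do not pair the mice. A replicate block gave 11 calls for fasting in LWT, 2 for fasting in LKO, 1 for each genotype comparison and 0 for the interaction.

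Ccr2 was below the background criterion on 1 array, and the other 34 genes passed it on all 24. With 6 mice a group, intervals of the log2 change reached over 1 unit to each side for Marco.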
